A study of Drosophila melanogaster with 4 samples.

Results

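The 887 H3K36me3 clusters of chromosome arm 3R are described here, out of 4026 enriched clusters on all sequences of the fly genome. They are the rows on 3R that the authors' combined list marked as significantly enriched, so they were chosen by position and by the authors' calls. The lists of the separate libraries held 876 (replicate 1) and 877 (replicate 2) clusters on the arm. The data are chromatin immunoprecipitation followed by sequencing (ChIP-seq) of nuclei from the heads of Oregon-R adults, a wild-type laboratory strain of Drosophila melanogaster, at a stage labelled mixed adult. Of the 4 libraries, 2 came from chromatin precipitated with an Abcam antibody against H3K36me3 and 2 from input chromatin, which the labels name as the input for the replicates' lists. The heads were sieved from flies raised in population cages, so a library holds chromatin of many animals and of every cell type of the head.

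H3K36me3 is histone H3 trimethylated on a lysine of its tail. In flies the methyltransferase Set2 places it while it travels with elongating RNA polymerase II, so the mark lies over the bodies of transcribed genes rather than at their promoters. Reader proteins bound to it act in RNA processing and, on the male X, in dosage compensation. Chromosome arm 3R is the longest of the 5 long arms. Its numbering starts at the centromere and ends at the telomere. It carries both homeotic complexes, the Antennapedia and the bithorax complex, whose genes encode homeodomain transcription factors that give body segments their identity.

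Cluster positions follow release 5 of the genome, as the file headers state, where the arm has 27905053 bp. The gene table used here is on release 6, and positions were not converted, so no cluster is assigned to a gene and no cluster sequence is shown. Read depth is unknown from these lists. The labels do not say that the 2 precipitated libraries came from separate collections of flies, so each SD with n = 2 measures how far these libraries differ and may reflect technical variation alone. No test was run, because with 2 libraries no exact test over libraries could reach a usual threshold, and the differences along the arm and between arms are given as values with that spread.

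On 3R, clusters covered 20.2% of the arm in replicate 1 and 20.2% in replicate 2, a mean of 5.63 Mb ± 0.000385 (SD, n = 2). This came to 31.4 clusters per Mb in each replicate. The combined list covered 5.88 Mb, or 21.1% of the arm. The first cluster lay 27.4 kb from the centromere-side end of the sequence in both replicates, and the last ended 20.7 kb (replicate 1) and 20.1 kb (replicate 2) before the telomere-side end, so the calls span nearly the whole assembled arm.

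Most clusters on the arm were a few kilobases wide. The median width was 5.16 kb in replicate 1 and 5.18 kb in replicate 2, with the middle 50% of clusters between 3.08 and 8.31 kb and between 3.15 and 8.25 kb. The narrowest had 1.31 and 1.32 kb and the widest 37.0 and 37.2 kb. Clusters of 10 kb or wider numbered 166 and 157. They were 18.9% and 17.9% of the clusters and held 41.6% and 40.0% of the marked sequence. Clusters of 20 kb or wider numbered 13 of 876 and 13 of 877, 1.48% of each list, beside 1.67% and 1.48% over all sequences. In the combined list there were 19 of 887 (2.14%), beside 2.06% over all sequences.

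Score went up with width on 3R. The authors' enrichment score is a number deposited with each cluster, for which neither scale nor log base is stated in the labels or headers. In replicate 1 the median score was 0.538 for 78 clusters under 2 kb, 1.14 from 2 to 4 kb, 1.87 from 4 to 8 kb, 1.99 from 8 to 16 kb and 2.14 above that. Replicate 2 gave 0.488, 1.13, 1.87, 1.97 and 2.09 for the same classes. No cluster under 2 kb scored above 0.774 (replicate 1) or 0.642 (replicate 2), and none of 16 kb or wider scored below 1.54 or 1.58. The medians lay far apart among the 3 narrowest classes and close together among the 3 widest. Width and score had a Spearman's rho of 0.751 over 876 clusters and 0.734 over 877, a description across clusters of single libraries. The other long arms had similar values. The mean rho of the replicates was 0.742 on 3R, 0.724 on 2L, 0.762 on 2R, 0.743 on 3L and 0.727 on X.

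**Figure D1:**
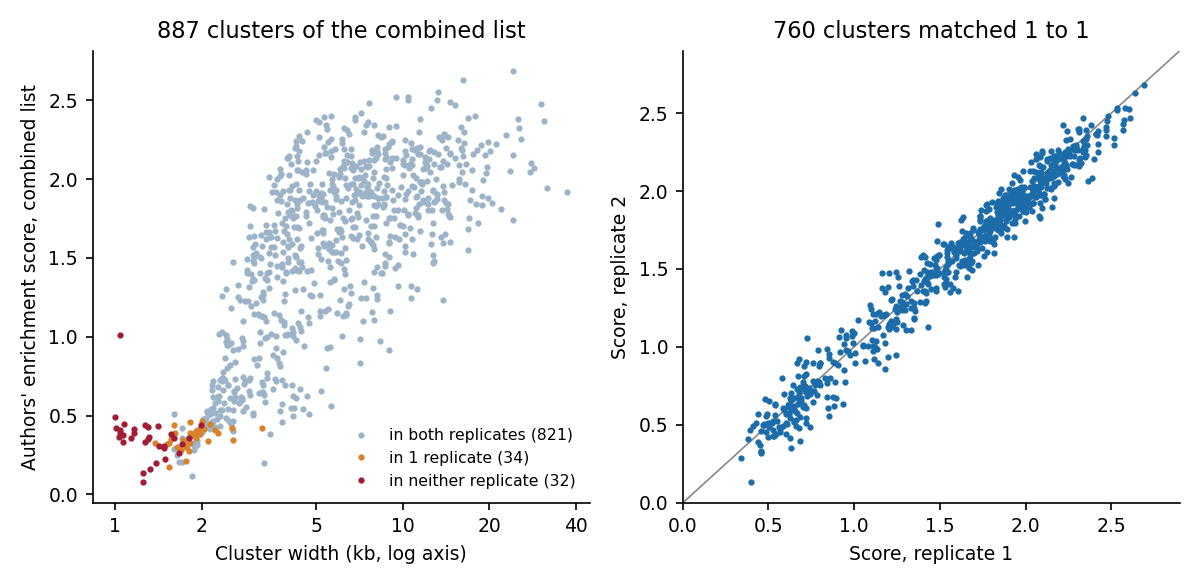
The left panel plots the authors' enrichment score against cluster width (kb, log axis) for the 887 combined clusters of 3R, coloured by whether a replicate list held an overlapping cluster. The right panel plots the scores of the replicates for the 760 combined clusters with exactly 1 cluster in each replicate, with the line of equality. Clusters in 1 replicate or in neither sit at the narrow, low-scoring end, and matched scores lie along the line.

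Nearly all clusters of the arm were called in both replicates. Of the replicate 1 clusters on 3R, 857 of 876 (97.8%) shared 1 bp or more with a cluster of replicate 2, beside 98.1% over all sequences. In the other direction 858 of 877 (97.8%) did so, beside 97.5%. Marked sequence common to both lists came to 5.50 Mb, with a Jaccard index (shared over total marked sequence) of 95.4%. There were 786 pairs in which each cluster overlapped only its partner. The median shift of the boundary was 58 bp at starts and 60 bp at ends, and 95% of starts were within 369 bp. The median absolute difference of their scores was 0.0633 and the largest 0.330. Replicate 1 had the higher score in 475 of the 786 pairs (60.4%), a share not computed over all sequences. Pairs were not matched on the other arms, so whether they have this offset is not known. Over all clusters of a list, paired or not, the mean score was higher in replicate 1 on every long arm. The median was higher in replicate 1 on 3R, 2R, 3L and X, but on 2L it was 1.644 in replicate 1 and 1.650 in replicate 2. Means in replicates 1 and 2 were 1.577 and 1.559 on 3R, 1.560 and 1.538 on 2L, and 1.581 and 1.554 on 2R. On 3L they were 1.594 and 1.565, and on X 1.668 and 1.625.

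The clusters called in a single replicate were narrow and low in score. There were 19 on 3R in each replicate, with median widths of 1.66 and 1.71 kb, against 5.25 kb for shared clusters in each replicate. Their scores ran from 0.433 to 0.689 in replicate 1 and from 0.263 to 0.642 in replicate 2. The highest-scoring of replicate 1 alone lay at 2878707 to 2880935 (0.689), 11672667 to 11674506 (0.676), 12422421 to 12423785 (0.669), 1635288 to 1637928 (0.619) and 3946730 to 3948037 (0.613). Those of replicate 2 alone lay at 8865030 to 8866488 (0.642), 8377346 to 8379055 (0.617), 26611125 to 26612530 (0.614), 8680380 to 8682373 (0.607) and 12803930 to 12806018 (0.579). The clusters at 2878707 and at 12803930 form an edge of the longest and of the fourth longest empty stretch, described further on.

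In the combined list, 821 of the 887 clusters (92.6%) overlapped both replicates, beside 90.8% over all sequences. A further 16 overlapped replicate 1 alone, 18 replicate 2 alone and 32 (3.61%) neither, beside 5.14% over all sequences for the last class. For the classes that overlapped a single replicate, no share over all sequences was computed, so their counts are not read as a trait of 3R. These 32 were at most 1989 bp wide, with a median of 1286 bp and a median score of 0.361. A single one of them reached a score of 1.01, at 10957774 to 10958810, which is 1.21 kb before the next cluster. The next 4 by score lay at 13730696 to 13731696 (0.488), 25740282 to 25741356 (0.450), 17100296 to 17101564 (0.444) and 16478570 to 16480558 (0.443). In 61 combined clusters a replicate had 2 or 3 separate clusters, and in 18 of these both replicates did. All 876 and 877 replicate clusters of 3R were present in the combined list.

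The 10 clusters of 3R with the highest scores in the combined list were found as 1 cluster in each replicate and lay along most of the arm. The highest spanned 20060790 to 20084848, 24.1 kb wide, and scored 2.69 in replicate 1 and 2.68 in replicate 2. Next came 27603402 to 27619646, a 16.2 kb cluster 285.4 kb from the telomere-side end, with 2.64 and 2.63. The cluster at 21808464 to 21821686 scored 2.601 and 2.529. That at 16461328 to 16471734 scored 2.61 and 2.47. The others spanned 9499998 to 9509436 (2.54 and 2.52), 23079332 to 23089710 (2.58 and 2.45), 8823900 to 8837002 (2.53 and 2.54), 5536698 to 5551294 (2.57 and 2.43), 26706634 to 26714286 (2.58 and 2.53) and 6137124 to 6167398 (2.48 and 2.48). The ninth, 7.65 kb wide, was the narrowest of the 10 and lies in the least covered window of the arm. Between replicates the scores of these clusters differed by up to 0.139, so most of their order is not settled by these libraries.

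The widest clusters were mostly not the highest-scoring ones. The widest, 7032184 to 7069390, was 37.0 kb in replicate 1 and 37.2 kb in replicate 2 and scored 1.93 and 1.92, which placed it at rank 264 of 887 by combined score. The second, 11168672 to 11200416, was 31.5 and 31.7 kb wide with scores of 1.98 and 1.92. The third, 20456950 to 20487946, was 31.0 kb in the combined list. Replicate 2 had it as 1 cluster of 30.9 kb, and replicate 1 divided it into clusters of 19.1 and 11.2 kb with 597 bp between them. The fourth, 6137124 to 6167398, was 30.5 and 30.1 kb wide and was the only cluster among both the 10 widest and the 10 highest-scoring. The remaining 6 were between 25.2 and 28.7 kb wide, at 19798264 to 19826922, 11077192 to 11105150, 1290066 to 1317696, 25616638 to 25642408, 24923000 to 24948410 and 17840180 to 17865392. That at 25616638 to 25642408 had 2 clusters in each replicate.

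Clusters on 3R were unevenly spaced. The gap between neighbours had a median of 6.67 kb in replicate 1 and 6.81 kb in replicate 2, but a mean of 25.4 kb in both. Of the gaps, 174 in replicate 1 and 168 in replicate 2 were under 1 kb, and 221 and 233 measured 1 to 5 kb. Another 230 and 223 measured 5 to 20 kb, 189 and 191 were longer but under 100 kb, and 61 in each replicate were 100 kb or longer. Gaps under 100 bp numbered 30 and 29, so some neighbours are separate calls that almost touch. Why they were called separately was not tested. The smallest gap was 0 bp, between touching clusters of replicate 1.

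Most clusters of the arm stood in runs, taken here as neighbours less than 5 kb apart. Runs of at least 2 clusters held 596 of 876 clusters (68.0%) in replicate 1 and 609 of 877 (69.4%) in replicate 2. Runs of 5 or more numbered 23 and 21. The longest, 1353160 to 1507078, was 153.9 kb long in the combined list and held 16 clusters in each replicate and 14 in the combined list, whose clusters covered 83.7% of it. Its clusters were 2.12 to 20.0 kb wide in replicate 1 and 2.00 to 19.9 kb in replicate 2, with median scores of 1.93 and 1.86. The next longest spanned 11013978 to 11105150 (91.2 kb, 6 clusters in each list), 9459284 to 9537138 (77.9 kb, 7 in each list) and 25815236 to 25884508 (69.3 kb).

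Outside any run stood 280 clusters in replicate 1 and 268 in replicate 2, but few clusters were far from both neighbours. Those at least 50 kb from both neighbours numbered 11 in replicate 1 and 12 in replicate 2, with median widths of 4.67 kb in both and median scores of 1.66 and 1.59. Clusters with both neighbours less than 5 kb away numbered 194 and 193, with median widths of 5.20 and 5.15 kb and median scores of 1.76 and 1.73. The highest-scoring isolated cluster lay at 2472190 to 2486252, 186.4 kb after the previous combined cluster and 392.7 kb before the next. It was 13.95 kb wide in replicate 1 and 14.06 kb in replicate 2, with scores of 2.33 and 2.25.

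Along the arm, coverage in windows of 1 Mb ran from 8.10% to 35.5%, with a median of 18.7% over 28 windows, the last of them shorter. The replicate values of a window were 0.183 points apart in the median and 0.897 points at most, so the spread between replicates was small beside that between windows. Coverage did not form a smooth gradient: across the 27 pairs of neighbouring windows Spearman's rho was -0.12. The most covered windows were 20 to 21 Mb (35.5% ± 0.371), 5 to 6 Mb (34.0% ± 0.634), 1 to 2 Mb (31.8% ± 0.207), 11 to 12 Mb (29.8% ± 0.0666) and 19 to 20 Mb (26.1% ± 0.0637), each SD with n = 2. The least covered were 26 to 27 Mb (8.10% ± 0.106), 13 to 14 Mb (11.8% ± 0.123), 22 to 23 Mb (11.9% ± 0.151), 2 to 3 Mb (12.4% ± 0.176) and 3 to 4 Mb (13.6% ± 0.166), each SD with n = 2.

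**Figure D2:**
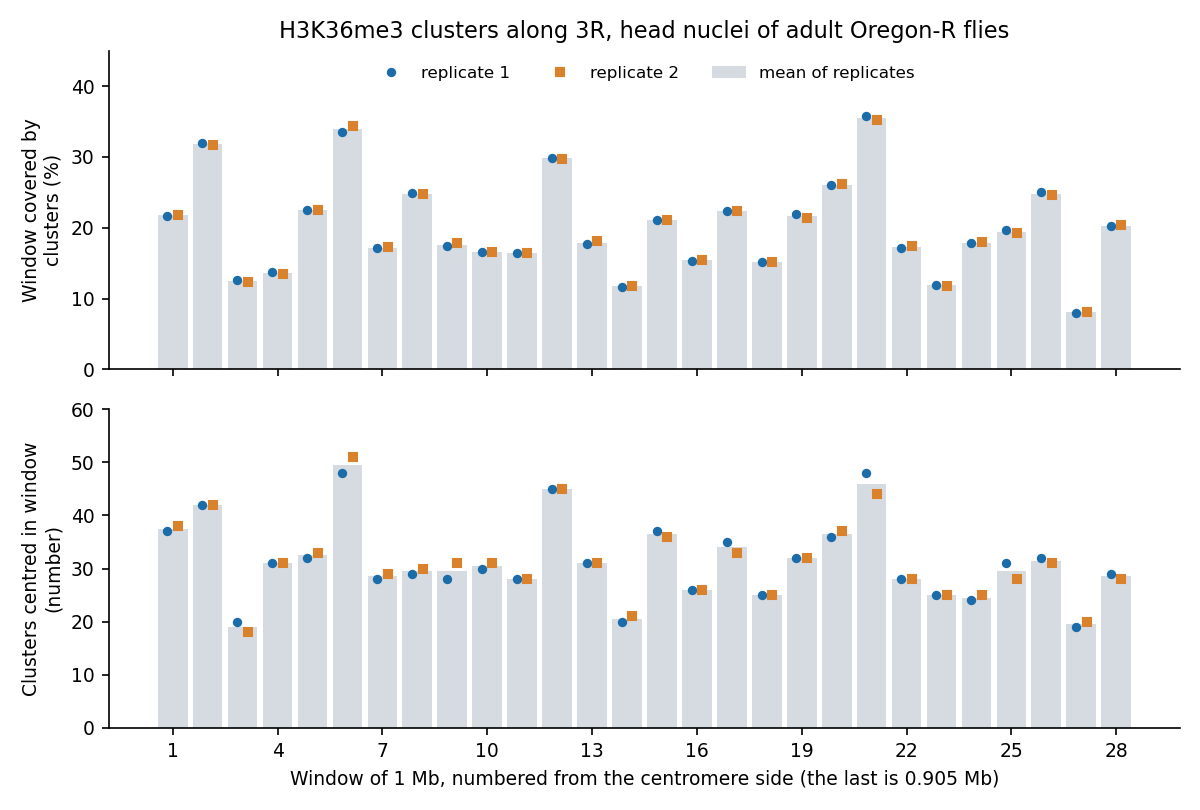
The upper panel shows the share of each 1 Mb window of 3R covered by clusters (%), and the lower panel the number of clusters centred in it, with bars for the mean of the replicates and points for each replicate. Windows are numbered from the centromere side, so window 21 is 20 to 21 Mb (35.5%) and window 27 is 26 to 27 Mb (8.10%). The coverage points of the replicates differ by at most 0.897 points in any window, and the counts by a few clusters in some (48 and 44 in window 21).

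Covered windows held both more and wider clusters. The number of clusters per window ran from 19 to 48 in replicate 1 and from 18 to 51 in replicate 2, and mean width ranged over 4.22 to 8.57 kb in replicate 1 and over 4.09 to 8.25 kb in replicate 2. Across the 28 windows, Spearman's rho between coverage and number was 0.869 in replicate 1 and 0.848 in replicate 2, and between coverage and mean width 0.802 and 0.715. Coverage is made of number and width, so these values only describe their parts in it.

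The window from 20 to 21 Mb held 48 clusters in replicate 1 and 44 in replicate 2. Their median width was 5.41 and 5.49 kb, beside 5.16 and 5.18 kb on the whole arm, and 14 and 12 of them were 10 kb or wider. It contains the highest-scoring cluster of the arm and the third widest. Its median gap was 3.96 and 4.72 kb, and the marked sequence lay on both sides of an empty stretch of 152.2 kb in each replicate. The window from 26 to 27 Mb held 19 and 20 clusters, with median widths of 3.78 and 3.72 kb and none of 10 kb or wider. Its median gap was 14.3 and 13.97 kb. Median scores in the replicates were 1.60 and 1.75 from 20 to 21 Mb and 1.64 and 1.58 from 26 to 27 Mb.

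**Figure D3:**
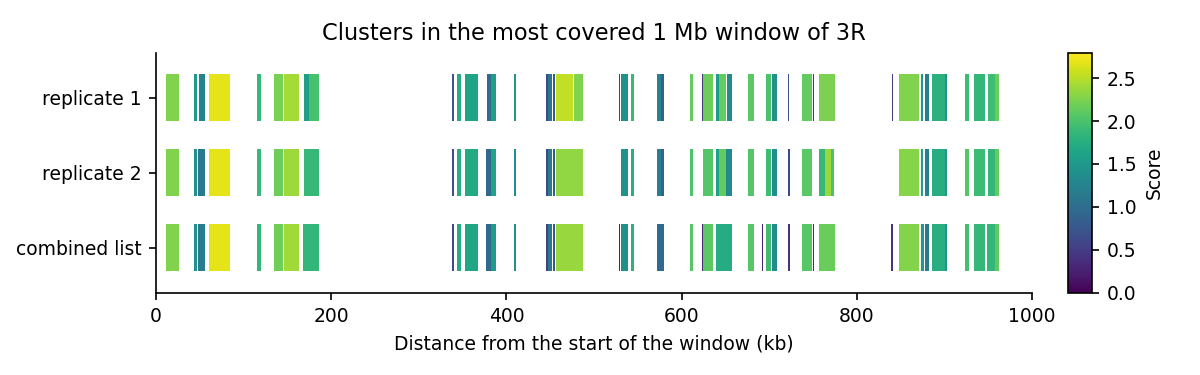
Clusters of the window from 20 to 21 Mb are drawn to scale as blocks by their distance from the window's start (kb), in the lists of replicate 1, replicate 2 and the combined list, coloured by the authors' score. Most blocks recur at the same places in all 3 lists, on both sides of the longest gap of the window. Low-scoring replicate 1 clusters such as that at 20622991 to 20624612 have no counterpart in replicate 2.

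The dense part reached beyond that window. Among windows of 1 Mb placed every 50 kb, the most covered ran from 19.5 to 20.5 Mb in both replicates, with 38.3% in each. In the combined list it ran from 19.75 to 20.75 Mb, with 39.3%. Of 56 windows of 500 kb, the most covered were 1 to 1.5 Mb (45.9% ± 0.0571), which holds most of the longest run, and 19.5 to 20 Mb (41.9% ± 0.154), each SD with n = 2. The least covered were 22 to 22.5 Mb (5.92% ± 0.00919) and 26.5 to 27 Mb (5.92% ± 0.139).

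The centromere side held dense and sparse sequence next to each other. The first 2 Mb were covered to 26.8% ± 0.0182, the next 2 Mb to 13.04% ± 0.171 and those from 4 to 6 Mb to 28.3% ± 0.310, each SD with n = 2. Together the first 6 Mb were covered to 22.7% ± 0.0402, against 19.5% ± 0.00925 for the rest of the arm (SD, n = 2 each). Cluster density there was 35.0 per Mb (replicate 1) and 35.5 per Mb (replicate 2), against 30.4 and 30.3 per Mb in the rest. The excess in coverage was 3.20 points ± 0.0495 (SD, n = 2), and 1.14 points when only the upper 50% of each list by score was counted. Clusters there were also closer together, with a median gap of 5.57 and 4.82 kb, against 7.51 and 7.59 kb. Median widths were 5.25 and 5.15 kb in the first 6 Mb, against 5.08 and 5.18 kb. This comparison was added after the data had been seen. Its limit divides the window from 5 to 6 Mb, covered to 34.0%, from that from 6 to 7 Mb, covered to 17.2%. The size of the excess therefore depends on where the limit was placed.

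Split into 4 parts of equal length from the centromere outward, the arm was covered to 22.0% ± 0.0534, 19.3% ± 0.0679, 22.3% ± 0.0747 and 17.3% ± 0.0412 (SD, n = 2 each). The parts covered to 22.0% and 22.3% exceeded the other two by more than the spread between replicates. Counting only the higher-scoring 50% of clusters, the 4 parts were covered to 14.2%, 13.9%, 16.2% and 12.5%, so the first exceeded the second by 0.223 points, against 2.69 points with all clusters. Split into 3 equal parts, the arm was covered to 21.6% ± 0.0562, 19.2% ± 0.00813 and 19.8% ± 0.0602 (SD, n = 2 each), with the lowest value in the middle. The last 2 Mb before the telomere were covered to 13.8% ± 0.106 (SD, n = 2). Within them lies the cluster with the second highest score of the arm. Closer to the telomere, an empty stretch of 192.3 kb began at 27678331. It came right after a cluster at 27674192 to 27678330 that scored 0.497 in the combined list. The final 3 combined clusters lay between 27870642 and 27884904, with scores of 0.841, 1.40 and 0.502 in replicate 1 and 0.990, 1.59 and 0.654 in replicate 2.

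Clusters from 3 to 4 Mb had the lowest median score of the 28 windows. It was 0.951 in replicate 1 and 1.07 in replicate 2, whereas the medians of the other 27 windows lay between 1.32 and 2.07 and between 1.41 and 1.99. The window holds 3078121 to 3712465, the longest stretch of the arm with no cluster in the upper 50% of any list by score. It contained 15 of the window's 31 clusters in replicate 1 and 16 of 31 in replicate 2, with median widths of 2.36 and 2.56 kb and median scores of 0.701 and 0.764. The highest scores in it were 1.52 and 1.58, beside medians of 1.69 and 1.67 over the whole lists. The choice of the stretch fixes its low scores, and width went with score on 3R, so these values are no separate result. The highest median scores per window were those from 23 to 24 Mb, 2.07 and 1.99.

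Stretches of 100 kb or longer with no cluster in any of the 3 lists numbered 60 and made up 10.5 Mb, or 37.6% of 3R. Of these, 16 reached 200 kb and made up 14.7% of the arm. The 4 longest exceeded 300 kb and lay at 2486258 to 2878706 (392.4 kb), 23794223 to 24143701 (349.5 kb), 1831543 to 2169239 (337.7 kb) and 12480665 to 12803929 (323.3 kb). The next 6 were 23118453 to 23372027 (253.6 kb), 18620329 to 18868991 (248.7 kb), 11372479 to 11611961 (239.5 kb), 6263193 to 6500976 (237.8 kb), 6723289 to 6952201 (228.9 kb) and 15886293 to 16114477 (228.2 kb). Such lengths are not particular to 3R, since each other long arm had a longer longest stretch. It measured 400.7 kb on 2L, 561.4 kb on 2R, 460.7 kb on 3L and 497.9 kb on X. Stretches of 300 kb or longer numbered 4 on 3R, 5 on 2L, 2 on 2R, 7 on 3L and 6 on X. In the 4 equal parts of the arm from the centromere outward, 14, 15, 12 and 19 stretches of 100 kb or longer made up 2.84, 2.40, 2.13 and 3.13 Mb. Of the 20 combined clusters at the edges of the 10 longest stretches, 6 scored under 1 (30.0%), beside 236 of all 887 clusters of the arm (26.6%).

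The first and the fourth of these stretches are where general knowledge of the release 5 map places the Antennapedia and the bithorax complex. No release 5 annotation was used here, so this placement was not checked. The RefSeq release 6 gene table gives the order on 3R, from the centromere outward, of lab, pb, zen2, zen, bcd, Dfd, Scr, ftz and Antp in the first complex, and of Ubx, abd-A and Abd-B in the second. The genes lab, pb, Dfd, Scr and Antp specify segments of the head and thorax, and Ubx, abd-A and Abd-B those of the posterior thorax and abdomen. The gene bcd encodes the maternal anterior determinant of the embryo, and ftz is a pair-rule gene. From the first to the last gene, 19 and 6 protein-coding genes are listed in the table, cuticle genes such as Edg84A and Ccp84Ag among them.

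The longest stretch, where the Antennapedia complex is thought to lie, was empty over 392.5 kb in replicate 1, 402.3 kb in replicate 2 and 392.7 kb in the combined list. On its centromere side stood the isolated cluster of 14.1 kb described above, with scores of 2.33 and 2.25. On its other side lay a weak cluster at 2878707 to 2880935, called in replicate 1 with a score of 0.689 and absent from the list of replicate 2. The first cluster shared by both replicates followed at 2888508 to 2892592, with scores of 1.87 and 1.85, and was followed by 2892668 to 2900628, with 2.36 and 2.35. The combined list kept the weak cluster, with a score of 0.465.

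The fourth longest stretch, where the bithorax complex is thought to lie, was empty over 333.8 kb in replicate 1, 323.3 kb in replicate 2 and 323.3 kb in the combined list. It began right after a pair of clusters, 12.3 and 11.7 kb wide in replicate 1 and 12.2 and 11.7 kb in replicate 2, which the combined list joined into 1 of 24.1 kb at 12456566 to 12480664. Their scores were 1.804 and 1.738 in replicate 1 and 1.801 and 1.655 in replicate 2. Replicate 2 bounded the other edge by a weak cluster at 12803930 to 12806018, scored 0.579, where the list of replicate 1 held none. The first cluster shared by both replicates followed at 12814404 to 12818090, with scores of 1.81 in each.

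**Figure D4:**
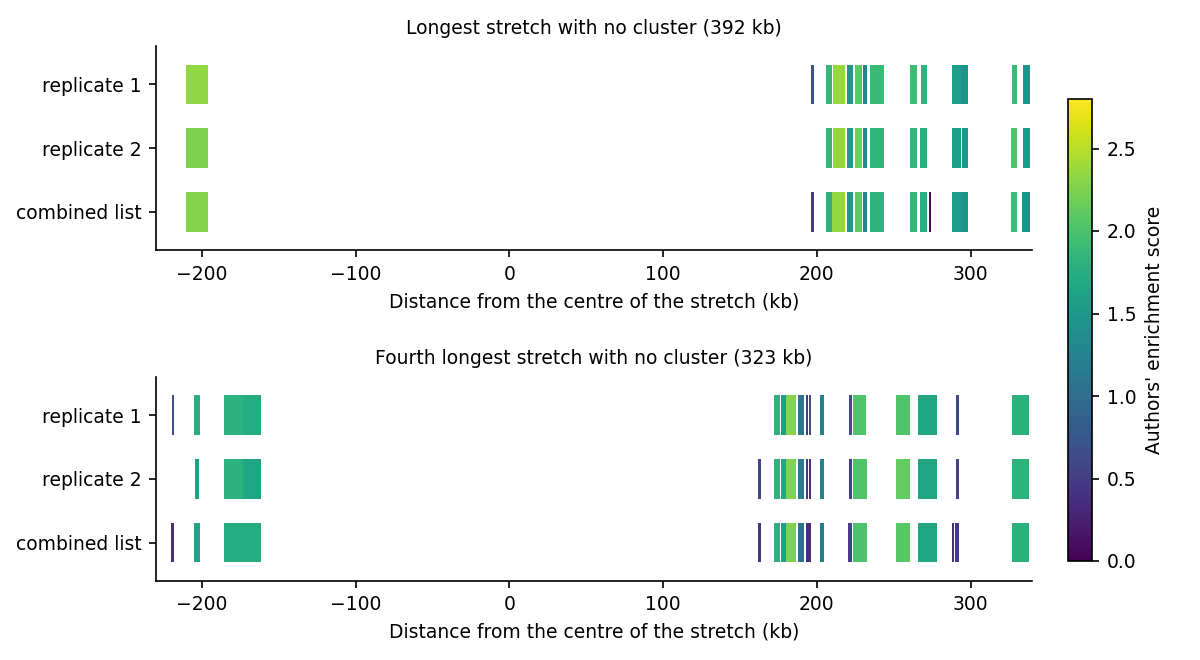
Clusters around the longest (392 kb, upper panel) and the fourth longest (323 kb, lower panel) empty stretch of 3R are drawn to scale by their distance from the centre of the stretch (kb), for each list and coloured by the authors' score. By definition no list has a cluster inside either stretch. At the right edge of each lies 1 weak cluster that a replicate list lacks.

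The longest stretch lies on the sparsely marked part of the centromere side. From 1.8 to 3.6 Mb, 5 empty stretches of 100 kb or longer made up 1.32 Mb, and clusters covered 10.1% in both replicates and 10.7% in the combined list. Among the overlapping windows of 1 Mb, the least covered ran from 1.85 to 2.85 Mb, with 7.23% in each replicate. Closer to the centromere, 1 to 1.5 Mb was the most covered of the 500 kb windows. The fourth longest stretch was followed, after 13 clusters in replicate 1 and 14 in replicate 2, by another empty stretch of 218.7 kb from 12980417 on. The window that contains the fourth longest stretch, 12 to 13 Mb, was covered to 17.9% ± 0.212 (SD, n = 2).

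Beside the other long arms, 3R lay within their range in coverage. It was covered to 20.2% ± 0.00138, against 17.7% ± 0.0806 for 2L, 22.8% ± 0.0524 for 2R, 18.2% ± 0.0779 for 3L and 20.0% ± 0.0711 for X (SD, n = 2 each). The order of 3R and X depends on the list, since the combined list covered 21.1% of 3R and 21.3% of X. Its median cluster width, 5.17 kb ± 0.0124, was above the 4.75 to 5.01 kb of the other arms, but among the upper 50% by score it was below that of 2L (3R minus 2L, -0.0908 kb). The share of clusters of 10 kb or wider was 18.4% ± 0.741 on 3R, against 15.1% on X to 16.8% on 2R. Median scores were 1.71 ± 0.0185 on 3R, against 1.65 on 2L to 1.72 on X. In the combined list the median score was 1.634 on 3R and 1.622 on X, the opposite order. Empty stretches of 100 kb or longer in a replicate's list made up 38.7% ± 0.280 of 3R, against 29.4% on 2R to 45.8% on 2L. None of these differences was tested, and no feature is called particular to 3R.

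**Figure D5:**
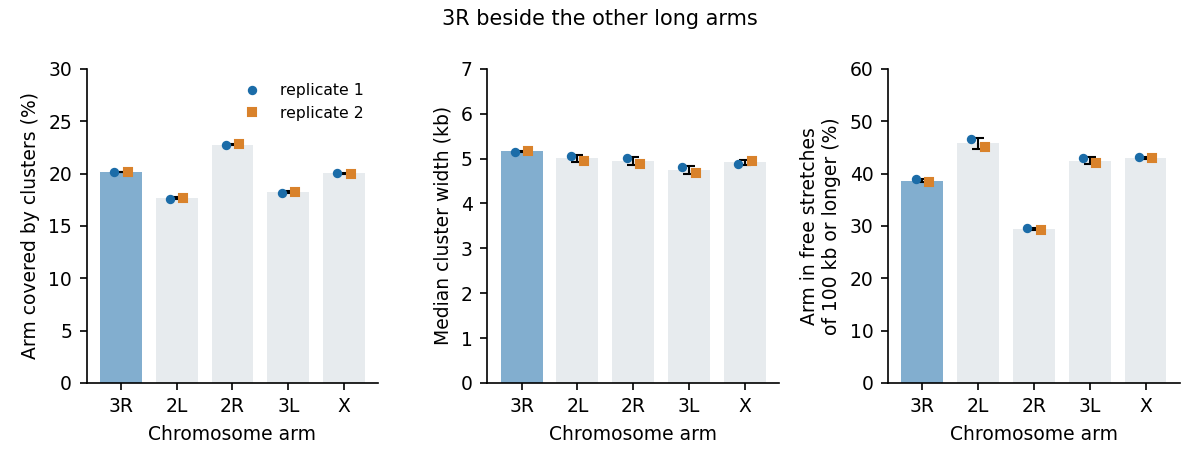
Bars give the mean of the replicates for 3R (left, blue) and for 2L, 2R, 3L and X, points give each replicate and error bars the SD (n = 2), for the share of the arm covered (%), the median cluster width (kb) and the share of the arm in empty stretches of 100 kb or longer (%). In coverage 3R (20.2%) lies between 2R (22.8%) and X (20.0%) in the replicates, whereas the combined list, which is not drawn, has 21.1% for 3R and 21.3% for X.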

How the data were processed

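For each of the 2 precipitated libraries, and for both combined, the authors deposited a list that gives the first and last base of every enriched cluster (counted from 1) and an enrichment score. The score is the authors' own deposited value, of unstated scale, and served here for ranking and filtering inside a list and for setting the replicates side by side. Positions are on release 5, per the file headers. The submitters' processing notes name Bowtie 0.12.7 without a role. Not stated in these sources are the caller, its cutoff, how the replicates were combined and the read depth. All 887 starts and ends of the combined list on 3R were even numbers, against 452 of 876 starts in replicate 1, so combined boundaries sit on a grid of positions. No list of the input libraries was analysed.

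Rows marked as enriched were kept, and widths, gaps, covered shares and empty stretches were computed with Python 3.11, numpy 2.4.6 and pandas 2.3.3, after the interval functions had been tested on simulated lists. A combined cluster was paired with the replicate cluster that shared most bases with it, and clusters were assigned to windows by their midpoint. A cluster counted as shared at an overlap of 1 bp. The last window was kept if at least 50% of full size. The arm and the lists of clusters were chosen with earlier results of these data known. Named items were the 10 highest-scoring and 10 widest clusters, the 5 highest-scoring of each class found in a single list, the 10 longest empty stretches and the 5 most and least covered windows. Other positions were named after their values had been seen. Resampling over regions was not used. Differences between parts of the arm or between arms were added after the data had been seen.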

Additional observations from a re-analysis of the deposited data

How the results depend on the processing

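Of the alternatives set against the main values, leaving out a replicate moved the count of clusters only between 876 and 877, coverage between 20.2% and 20.2%, the range over 4 equal parts of the arm between 5.00 and 5.04 points, the highest window between 35.2% and 35.7%, the median gap between 6.67 and 6.81 kb, the longest empty stretch between 392.5 and 402.3 kb, and the difference of 3R from the mean of the other long arms between 0.498 and 0.546 points. The combined list gave 21.1% coverage, a range over the 4 parts of 5.20 points, a highest window of 36.8% and a difference from the other arms of 0.375 points, against 0.522 in the replicates. The upper 50% of each list by score left 450 clusters, 14.2% coverage, 3.70 points between the 4 parts, a highest window of 26.2%, a median gap of 17.7 kb, 0.689 points above the other arms, 95.9% of clusters shared and a longest empty stretch of 634.3 kb. That stretch, 3078121 to 3712465, replaced 2486258 to 2888505 (402.2 kb) as the longest, because it holds only low-scoring clusters. Clusters of 2 kb or wider gave 19.7% coverage, 4.94 points, a highest window of 34.9% and a median gap of 8.07 kb. Joining neighbours under 1 kb apart gave a median gap of 11.6 kb, 3 equal parts of the arm a range of 2.34 points, windows of 500 kb a highest value of 45.9%, and a reciprocal overlap of 50% a shared part of 94.9%. The count of clusters was 887 in the combined list, 801 at 2 kb or wider and 705.5 (mean of the replicates) with neighbours joined, each within 1.5 times the main count. Differences added after the data had been seen reversed as follows. The coverage of 3R minus that of X was 0.162 points in the replicates and -0.194 in the combined list. The median score of 3R minus that of X was -0.013 in the replicates, 0.0117 in the combined list and 0.021 for clusters of 2 kb or wider. The median width of 3R minus that of 2L was 0.16 kb in the replicates and -0.0908 kb in the upper 50% by score. The cause of these changes was not tested. Agreement of the replicates has no value without a replicate. No paired analysis was possible because the input libraries have no list analysed here, so no groups were compared. Depth is unknown, so a missing call in an empty stretch does not show that the mark is absent there.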

Other observations

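The heterochromatin assigned to this arm, 3RHet, is a separate sequence of 2.52 Mb on which few clusters were called. Read depth is unknown there too, so missing calls do not show that the mark is absent. 3RHet held 11 clusters in each replicate and 13 in the combined list. They covered 1.57% and 1.72% of it in the replicates, a mean of 1.65% ± 0.109 (SD, n = 2). Their median scores were 0.959 and 0.978, and the highest scores were 1.51 in each, at 1682735 to 1688955 in replicate 1 and 1682959 to 1689015 in replicate 2. In replicate 1, 10 of the 11 clusters lay between 1679527 and 1945528, and the other at 2480037 to 2481731. In replicate 2 the same held for 10 of 11, between 1679770 and 1945899.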
